A study of Mus musculus with 8 samples.

Results

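Skint1, Skint2, Skint3, Skint4, Skint7, Skint8, Mill1 and Clca3a1 were followed across the thymic epithelial cells (TEC) of young and adult mice, by TEC subtype, by age, by surface phenotype and by the depth of the cells in which they were detected. These 8 genes, of 55487 in the count table, were selected by their levels in TEC in earlier results of these same data, so their levels across TEC subtypes and ages are given as a description and no test was made. Expression was read as unique molecular identifiers (UMIs, which count captured mRNA molecules) from the 3′ end of transcripts in single cells. Levels are given as CPM, the UMIs of the gene per 1000000 UMIs of the same cells.

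The cells were thymic stromal cells of C57BL/6 mice aged 1 week or 16 weeks, and the labels name no deleted gene and no treatment for either group. They had been depleted of CD45-positive cells and sorted as a mixture of EpCAM1-positive and EpCAM1-negative cells, so the sort set the shares of cell types. In CITE-seq, each cell's mRNA is counted together with DNA tags on antibodies bound to its surface. According to the methods of the study, thymi of several mice of an age were pooled and the pool was loaded on 2 wells, so each age is 1 sample, the replicates are technical, and animals cannot be told apart. The 95% intervals below therefore cover counting error only, not the spread between mice.

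Skint genes encode membrane proteins of the immunoglobulin superfamily related to butyrophilins and are known from skin and thymus. Skint1 in TEC is needed for the selection of the γδ T cells that later settle in the mouse epidermis, whereas the roles of the other Skint proteins are less clear. Mill1 encodes a protein related to MHC class I molecules, and Clca3a1 a member of the calcium-activated chloride channel regulator family. TEC of the cortex (cTEC) support positive selection of thymocytes. Mature medullary TEC (mTEC) display tissue antigens under the control of Aire, and intertypical TEC is the name in use for a population with both cortical and medullary traits.

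The 6 Skint members lie among 11 Skint genes between positions 111919392 and 114245028 of mouse chromosome 4 (GRCm38), a stretch of 2.33 Mb, and all 6 are on the plus strand. Skint8 (chr4:111919392-111950358), Skint7 (chr4:111972923-111988223) and Skint1 (chr4:112006269-112029538) are neighbours, followed by Skint4 (chr4:112072016-112168076), Skint3 (chr4:112232245-112300468) and Skint2 (chr4:112557194-112652248). Mill1 is on the plus strand of chromosome 7 (chr7:18245347-18266092) and Clca3a1 on the minus strand of chromosome 3 (chr3:144729677-144760977). Promoters of 4 members are shown, that of Skint1 because this gene has the known role in the thymus and was high in mature mTEC, and those of Skint7, Mill1 and Clca3a1 because these were high in an intertypical cluster described below. Each runs from 250 bases before to 50 bases after the start of the gene in RefSeq (GRCm38.p6), 5′ to 3′ on the strand of the gene. They are at chr4:112006019-112006318 (plus) for Skint1, chr4:111972677-111972976 (plus) for Skint7, chr7:18245097-18245396 (plus) for Mill1 and chr3:144760928-144761227 (minus) for Clca3a1. Capitals mark a match on either strand to the TATA box core TATAAA, the AP-1-like pattern TGANTCA (N is any base) or the interferon response element.
Skint1: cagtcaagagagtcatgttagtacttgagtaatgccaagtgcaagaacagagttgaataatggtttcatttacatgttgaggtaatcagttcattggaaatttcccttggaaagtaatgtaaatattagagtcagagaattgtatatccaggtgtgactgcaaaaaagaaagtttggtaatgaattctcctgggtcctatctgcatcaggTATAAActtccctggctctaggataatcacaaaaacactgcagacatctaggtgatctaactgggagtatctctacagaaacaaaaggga
Skint7: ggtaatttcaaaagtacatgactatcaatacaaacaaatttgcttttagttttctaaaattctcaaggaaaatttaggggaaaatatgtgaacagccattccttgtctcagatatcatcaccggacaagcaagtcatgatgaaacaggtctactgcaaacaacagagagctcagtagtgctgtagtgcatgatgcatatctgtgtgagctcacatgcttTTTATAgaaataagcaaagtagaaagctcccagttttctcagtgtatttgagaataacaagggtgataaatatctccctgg
Mill1: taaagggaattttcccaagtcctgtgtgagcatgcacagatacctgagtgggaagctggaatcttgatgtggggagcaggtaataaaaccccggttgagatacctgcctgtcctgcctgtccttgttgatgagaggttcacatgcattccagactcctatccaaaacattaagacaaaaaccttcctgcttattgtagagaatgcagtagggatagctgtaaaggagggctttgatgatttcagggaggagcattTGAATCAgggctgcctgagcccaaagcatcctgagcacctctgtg
Clca3a1: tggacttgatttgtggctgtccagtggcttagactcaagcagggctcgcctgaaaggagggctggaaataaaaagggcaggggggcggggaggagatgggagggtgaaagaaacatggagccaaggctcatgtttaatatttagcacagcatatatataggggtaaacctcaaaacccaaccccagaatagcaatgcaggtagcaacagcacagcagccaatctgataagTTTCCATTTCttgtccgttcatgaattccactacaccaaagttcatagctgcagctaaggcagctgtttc

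TATAAA was found 40 bases before the start of Skint1, on the printed strand, and 31 bases before that of Skint7, on the opposite strand. Altogether 5 of the 9 promoters listed for the members (Skint4 has 2) held this hexamer, against 13.6% of all 32851 promoters of the same length. TGANTCA was present only in the Mill1 promoter among the 9, as TGAATCA, 5 bases after the start and overlapping an E-box (CANNTG), against 7.81% of all promoters. The interferon response element was present only in that of Clca3a1, on the strand opposite to the printed one 20 bases before the start, against 3.44%. CANNTG was found in 8 of the 9 against 72.3% of all promoters, the κB core in 5 against 50.8%, and the Runx core TGTGGT in 1, that of Skint2, against 16.8%. These matches describe the letters of the windows and were not linked to binding of any factor.

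The count table held 9953 cells, of which 5594 were analysed as TEC, 2038 at 1 week and 3556 at 16 weeks, in 18 clusters. Libraries ranged from 21281389 to 45480790 UMIs and the median TEC from 6463 to 9288 UMIs. Mitochondrial transcripts made up 3.10% to 3.44% of TEC UMIs at 1 week and 4.76% to 5.64% at 16 weeks. In all, 15 barcodes occurred in more than 1 library, in 35 cells, 18 of them TEC. The composition of the TEC differed between the ages: cTEC made up 66.9% of TEC at 1 week and 5.20% at 16 weeks, mature mTEC 6.23% and 22.8%, and intertypical TEC 7.70% and 46.9%.

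The members were detected mostly, but not entirely, in TEC. The share of the UMIs of a gene found in TEC ranged from 75.0% for Clca3a1 to 90.0% for Skint4, where TEC held 63.3% of the UMIs of all genes. Skint7 was detected in 35.8% of TEC and Skint3 in 12.9%, with at most 33 and 61 UMIs in a single cell. Fibroblasts of the same wells gave the level outside the epithelium. At 16 weeks, the summed Skint members stood at 34.4 CPM in the 1795 fibroblasts and at 38.6 CPM in cTEC, against 421 CPM in all TEC. Levels up to that of fibroblasts are read as background. The cTEC clusters differed. The Hbb-bs-led one, with 91 of the 185 cTEC of that age, had 83.3 CPM (66.4 to 103, wells 113 and 78.1), above fibroblasts. The clusters led by Fxyd2 and by Gm4841 had 18.1 and 21.9 CPM, below fibroblasts. When members and markers were left out of the clustering, the cluster led by Hbb-bs was named proliferating TEC. The cTEC name of the Hbb-bs-led cluster thus depended on the clustering.

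At 16 weeks the members fell into different groups of TEC. Skint1 and Skint2 were highest in a cluster of mature mTEC, and Skint4 in a small microfold-like cluster with those mature mTEC next. The mature mTEC cluster and the microfold-like cluster depended on the clustering, as given below, and so did the name of the Hbb-bs-led cluster, as given above. Skint7, Mill1 and Clca3a1 were highest in an intertypical cluster led by the long non-coding transcript Gm8113. Skint8 was high both there and in the microfold-like cells, and Skint3 was highest in an unnamed cluster led by Bpifa1.

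**Figure D1:**
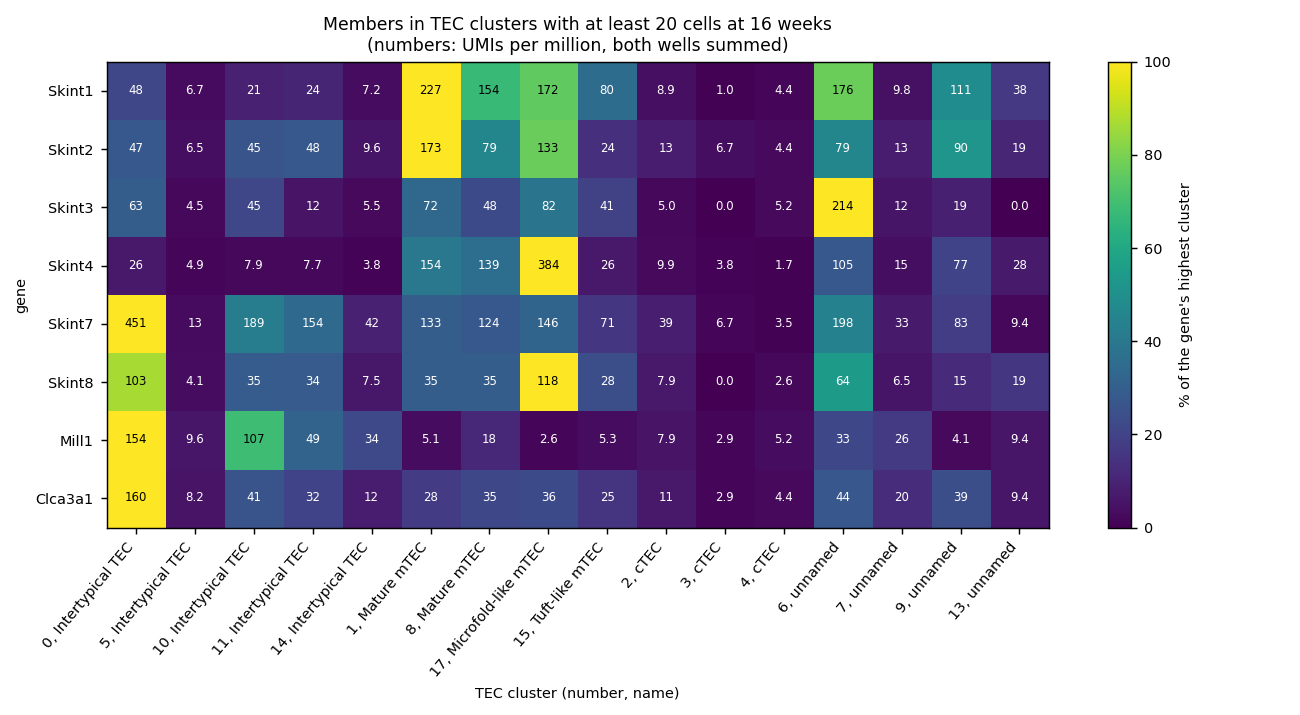
Levels of the 8 genes (rows) in the TEC clusters with at least 20 cells at 16 weeks (columns, cluster number and name); the printed numbers are CPM over both wells and the colour is the percentage of the highest cluster of that gene. Skint1 and Skint2 are highest in cluster 1, Skint4 and Skint8 in cluster 17, Skint3 in cluster 6, and Skint7, Mill1 and Clca3a1 in cluster 0.

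Skint1 reached 227 CPM (95% Poisson interval 216 to 238) in the Cd52-led cluster of mature mTEC, with 226 and 227 CPM in the 2 wells. The next cluster, the unnamed Bpifa1-led cells, had 176 CPM, with wells of 141 and 190, and neither wells nor intervals overlapped. The microfold-like cluster, with 172 CPM over both wells, reached 369 CPM in the well with 9 of its cells and 140 CPM in the other, so the Cd52-led cluster was highest in only 1 of the 2 wells. This 1 mature mTEC cluster made up 15.9% of 16-week TEC and held 50.6% of their Skint1 UMIs. Skint2 was highest there as well, with 173 CPM (wells 167 and 176), followed by 133 CPM in the microfold-like cluster (wells 129 and 134), whose intervals overlapped. Skint4 was highest in the 36 microfold-like cells, at 384 CPM (325 to 451), although their wells differed widely, at 221 CPM from 9 cells and 411 CPM from 27 cells. Both wells still exceeded the 154 CPM of the Cd52-led mature mTEC (wells 141 and 160), the next cluster in the order. When members and markers were left out of the clustering, no microfold-like cluster was found, and 35 of these 36 cells fell into an unnamed Bpifa1-led cluster of 289 cells with 144 CPM of Skint4. The highest level of Skint4 was then 171 CPM, in an unnamed cluster led by Cd52 and Ccl5.

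Set against all other TEC of that age, the mature mTEC class (811 cells, 2 clusters) had 219 CPM of Skint1 against 47.6, a log2 ratio of 2.20 (2.10 to 2.30). The wells were 216 and 220 CPM against 43.0 and 49.8. The log2 ratio was 2.08 for Skint2 and 2.26 for Skint4, and 1.23 for the summed Skint members, which fell to 0.41 without correction across libraries. Of the 8 members, 3 were at least 2-fold higher in mature mTEC, where 23.8% of 20285 genes were, and 1, Mill1, at least 2-fold lower, where 13.5% were. Mill1 was at 4.38 and 7.51 CPM in the wells of mature mTEC and at 54.2 and 45.2 CPM in those of other TEC, a log2 ratio of −2.88 (−3.30 to −2.48). Skint7 stood at 132 CPM in mature mTEC and 135 CPM in other TEC, with overlapping wells and a log2 ratio of −0.03 (−0.13 to 0.06), and Skint8 at 34.9 and 32.4 CPM, a log2 ratio of 0.11 that ranged from −1.07 to 0.29 over other processing. Clca3a1 was at 29.0 CPM against 42.3, a log2 ratio of −0.55 that became 0.24 once the Gm8113-led cluster was left out of the other TEC.

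The Skint3 ratio of 0.71 between mature mTEC and other TEC depended on how the class was drawn: it was −1.14 without correction across libraries, −0.74 with 20 neighbours and −0.70 when members and markers were left out of the clustering. The Cd52-led cluster, highest for Skint1, also broke up in that last clustering. Of its 564 cells at 16 weeks, 332 (58.9%) fell into an unnamed cluster led by Cd52 and Ccl5, with 268 CPM of Skint1, and 184 (32.6%) into a cluster named mature mTEC, with 150 CPM. The other cluster then named mature mTEC had 173 CPM. The mature mTEC class also carried transcripts of blood cells. The 7 haematopoietic markers summed to 565 CPM there, to 220 CPM in all 16-week TEC and to 113 CPM in the Gm8113-led cluster, with none of the 7 at 0, against 1688 CPM in the haematopoietic cells themselves. The 6 fibroblast markers went the other way, at 672 CPM in mature mTEC, 906 CPM in all 16-week TEC and 836 CPM in the Gm8113-led cluster. The part of either list of transcripts in the levels of the members was not tested.

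The Gm8113-led intertypical cluster held 803 cells at 16 weeks and 8 at 1 week. Skint7 was at 451 CPM in it (wells 498 and 431) and at 98.2 CPM in other 16-week TEC (wells 101.96 and 96.4), a log2 ratio of 2.20 (2.12 to 2.28). Mill1 was at 154 CPM (wells 183 and 142) against 26.1, a log2 ratio of 2.56 (2.41 to 2.71), and Clca3a1 at 160 CPM (wells 162 and 160) against 25.6, a log2 ratio of 2.65 (2.50 to 2.79). Wells of the cluster and of the other TEC did not overlap for any of these genes. Skint8 was at 103 CPM against 24.9. Skint4 was lower in the cluster, at 26.0 CPM against 60.6, and so was Skint1, at 47.9 CPM against 87.5.

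In that comparison 4 of the 8 members were at least 2-fold higher, where 11.5% of genes were, and 1, Skint4, at least 2-fold lower, where 24.0% were. Mill1, Clca3a1 and Skint7 are among the 10 leading genes of the cluster, which were ranked by level after the cells had been clustered. The members were not kept out of that clustering, so these counts are a description only. When the members and the TEC markers were left out of the clustering, 794 of the 803 cells (98.9%) still fell into 1 cluster of 827 cells, in which Skint7 was at 436 CPM, Mill1 at 152 CPM, Clca3a1 at 152 CPM and Skint8 at 101 CPM. The cluster was shallow and rich in mitochondrial transcripts, with a median of 4201 UMIs and 10.8% mitochondrial UMIs, and nuclear Malat1 took 8.64%. How far this bears on the levels of the members was not tested.

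A second intertypical cluster, led by Ccl11, Krt14 and Ccl21a, was deeper, at a median of 15815 UMIs and 3.30% mitochondrial UMIs. It shared Mill1 with the Gm8113-led cells, at 107 CPM (wells 129 and 95.5), which placed it next in the order for Mill1, with neither wells nor intervals overlapping. The difference between these clusters was 0.53 on the log2 scale for Mill1 (0.36 to 0.71) but 1.95 for Clca3a1 (1.71 to 2.20), 1.57 for Skint8 and 1.26 for Skint7. Skint2 stood at 47.4 CPM in the Gm8113-led and 45.2 CPM in the Ccl11-led cluster, a log2 difference of 0.07 (−0.23 to 0.36), but the wells of the Ccl11-led cluster, at 24.9 and 55.0 CPM, lay on either side of those of the Gm8113-led cluster, at 47.1 and 47.5 CPM. Of the other intertypical clusters, the one led by Sprr2a3 and Ccl21a had 154 CPM of Skint7 (wells 125 and 172), and those led by Fmod and by Igfbp5 had 13.3 and 42.0 CPM.

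Skint3 had its highest level outside both groups. It was at 214 CPM in the Bpifa1-led cells (wells 152 and 239), against 82.0 CPM in the microfold-like cluster that came next. This unnamed cluster of 252 cells at 16 weeks is led by Bpifa1, by genes known from cornified epithelium, Spink5, Dmkn and Krtdap, and by genes known from mucosal or gut epithelium, Pigr and Lgals4, and it held 33.6% of the Skint3 UMIs of 16-week TEC with 7.09% of the cells. Mill1 reached 33.2 CPM there and 2.56 CPM in the microfold-like cluster, the latter from 1 UMI (Poisson interval 0.065 to 14.3). Tuft-like mTEC, 114 cells at 16 weeks, had 80.3 CPM of Skint1 and 270 CPM of the summed Skint members.

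Between the ages, each of the 8 genes was higher at 16 weeks when all TEC were summed, and no well of one age overlapped a well of the other. Skint1 was at 22.4 and 20.8 CPM in the 1-week wells and at 78.5 and 85.8 CPM in the 16-week wells, a log2 ratio of 1.94 (1.83 to 2.05). Skint7 was at 20.1 and 22.4 CPM and then at 140 and 132 CPM, a log2 ratio of 2.67 (2.57 to 2.78). Mill1 showed the widest gap, from 1.28 and 0.983 CPM to 44.0 and 37.3 CPM, a log2 ratio of 5.10 (4.67 to 5.55) that rests on 46 UMIs at 1 week and 1525 at 16 weeks. Clca3a1 was at 3.36 and 3.76 CPM and then at 39.8 and 39.4 CPM, a log2 ratio of 3.48 (3.24 to 3.74).

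The other members were higher at 16 weeks too. The log2 ratios were 1.78 for Skint4, 2.33 for Skint8, 2.38 for Skint2 and 3.00 for Skint3, for which the wells differed more within an age, at 3.89 and 8.79 CPM at 1 week and 37.1 and 53.2 CPM at 16 weeks. All 8 genes were thus at least 2-fold higher, where 29.9% of 22029 genes were, and none was 2-fold lower, where 6.67% were. Over all those genes the median log2 ratio was 0.32, and scaling by trimmed means lowered every ratio by 0.30. Summed over all TEC, more mRNA per cell and more cells of an expressing subtype cannot be told apart, and the mix of subtypes differed between the ages as given above.

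**Figure D2:**
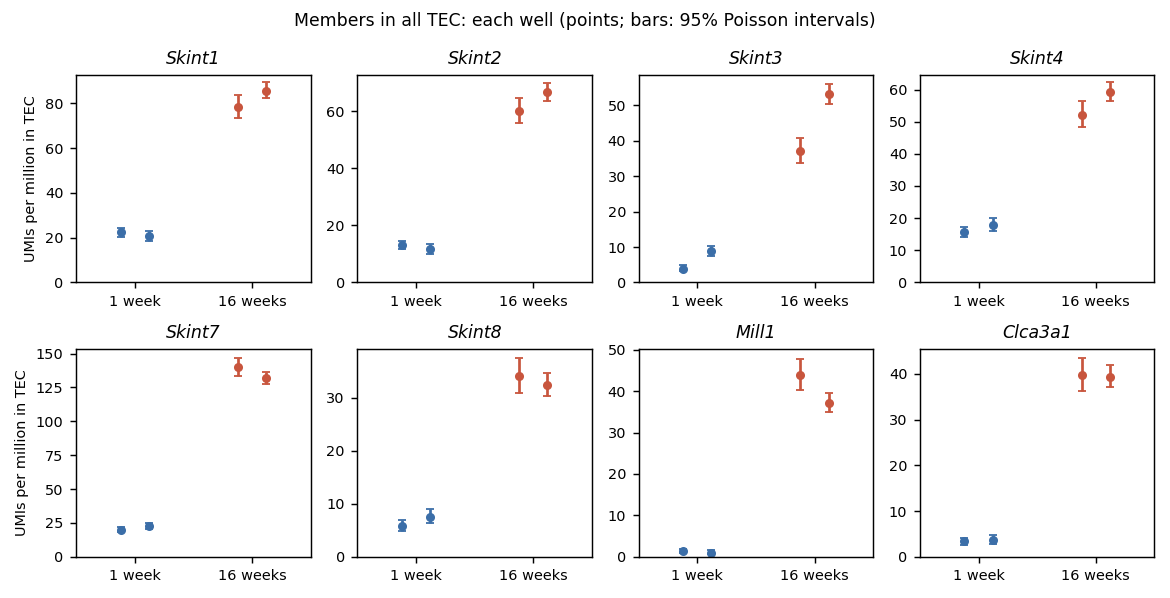
CPM of each gene in all TEC of each well (points) at 1 week and 16 weeks, with 95% Poisson intervals as bars; each panel has its own axis from 0. The 16-week wells lie above the 1-week wells for all 8 genes, for Skint1 at 78.5 and 85.8 CPM against 22.4 and 20.8 CPM.

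Within mature mTEC the age differences were smaller than over all TEC for each of the 8 genes. In this class, of which there were 127 cells at 1 week and 811 at 16 weeks, the summed Skint members stood at 701 and 856 CPM in the 1-week wells and 748 and 780 CPM in the 16-week wells, a log2 ratio of 0.00 (−0.08 to 0.09). Skint1 was at 192 and 184 CPM and then at 216 and 220 CPM, a log2 ratio of 0.21 (0.04 to 0.39). Skint7 was at 93.6 and 108 CPM and then at 136 and 130 CPM, a log2 ratio of 0.40 (0.17 to 0.65). Neither of these 2 genes had overlapping wells, nor did Skint2, at 183 and 178 CPM and then at 158 and 165 CPM, a log2 ratio of −0.15 (−0.33 to 0.03). For Skint3, Skint4, Skint8 and Mill1 the wells of the ages overlapped, and Mill1 had 6 UMIs at 1 week, too few to place its log2 ratio of 0.87 more closely than −0.34 to 2.38.

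Clca3a1 was the exception in mature mTEC. It was at 6.31 and 10.96 CPM at 1 week and at 29.9 and 28.6 CPM at 16 weeks, a log2 ratio of 1.80 (1.02 to 2.69) from 14 and 235 UMIs. It was the 1 member of 8 that was at least 2-fold higher with age in this class, where 14.0% of 16801 genes were, and no member was at least 2-fold lower, where 5.67% were. In fibroblasts Clca3a1 also stood higher at 16 weeks, at 5.07 CPM against 1.19, and so did the summed Skint members, at 34.4 CPM against 10.3. The level outside the epithelium was thus itself higher at 16 weeks, and its part in the difference in mature mTEC was not tested.

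Mill1 and Skint7 were also higher at 16 weeks in cTEC and in fibroblasts, at low levels, and so were other members. In cTEC the log2 ratio was 2.72 for Clca3a1, 2.24 for Skint3 and 1.57 for Skint2, without overlap of wells. It was 0.32 for Skint4 (−0.50 to 1.06), and the wells of Skint1 and Skint8 overlapped. In fibroblasts it was 1.27 for Skint1 and 1.92 for Skint2, again without overlap. In cTEC Mill1 stood at 0.230 and 0.0769 CPM in the 1-week wells and 6.67 and 4.32 CPM in the 16-week wells, a log2 ratio of 4.94 (3.44 to 6.74) from 5 and 17 UMIs, and in fibroblasts the log2 ratio was 4.34 (1.80 to 9.67) from 1 and 53 UMIs. Skint7 was at 3.09 CPM at 1 week and 14.9 CPM at 16 weeks in cTEC, and at 1.84 and 9.09 CPM in fibroblasts. Among the clusters named cTEC, Skint7 was highest in the Hbb-bs-led one at 16 weeks, at 38.7 CPM (wells 33.1 and 39.6), against 9.43 CPM at 1 week. The cTEC name of this cluster depended on the clustering, as given above. In the Bpifa1-led cells, of which 30 were of 1 week, the log2 age ratio was 2.38 for Mill1 (0.49 to 5.45, from 2 UMIs at 1 week), 1.75 for Skint8, 1.61 for Skint3 and 1.46 for Clca3a1 (0.20 to 3.11, from 5 UMIs at 1 week). In a cluster led by Utf1 and Aspm it was 2.21 for Skint3 (0.91 to 3.88, from 5 UMIs at 1 week), 1.59 for Clca3a1 and 1.17 for Skint2. Wells did not overlap for any of these.

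The intertypical class could not be compared as a whole, because different clusters made it up at each age. Its 1-week cells lay mainly in a single cluster led by Sprr2a3 and Ccl21a (cluster 11), with 141 cells at 1 week and 80 at 16 weeks. In this cluster Skint1 was lower at 16 weeks, at 23.3 and 23.8 CPM against 95.8 and 104 CPM at 1 week, a log2 ratio of −2.08 (−2.63 to −1.57). Skint4 was lower as well, at 14.98 and 3.11 CPM from 12 UMIs against 18.8 and 29.0 CPM, a log2 ratio of −1.63 (−2.68 to −0.69), and its 16-week wells differed widely. Skint2 was higher, at 40.0 and 52.9 CPM against 9.88 and 18.3 CPM, and Mill1 was higher, at 31.6 and 60.1 CPM against 10.9 and 8.59 CPM, a log2 ratio of 2.33 (1.59 to 3.14). The wells of Skint7 overlapped between the ages.

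Within this 1 cluster Skint1 and Skint4 were thus lower and Skint2 and Mill1 higher at 16 weeks. The depth of the cells differed as well, the median cell of this cluster having 6301 UMIs at 1 week and 17236 at 16 weeks. After every cell had been thinned to 4000 UMIs, Skint1 was detected in 29.6% of its 1-week cells (21.8% to 38.4%) and 2.60% of its 16-week cells (0.316% to 9.07%), and Mill1 in 5 of 125 cells (1.31% to 9.09%) and 16 of 77 cells (12.4% to 31.5%). The intervals overlapped for Skint4, detected in 10.4% and 3.90%, and for Skint2, in 5.60% and 11.7%. When the 10 clusters with at least 20 cells at each age were given equal weight, the age difference of the summed Skint members over TEC was 0.26 on the log2 scale in place of 2.32, that of Mill1 2.29 and that of Clca3a1 1.07, and that of Skint4 turned to −0.12. These values leave out the Gm8113-led and Ccl11-led clusters, with 8 and 4 cells at 1 week. They thus differ from the sum over TEC in the clusters used as well as in the weights.

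**Figure D3:**
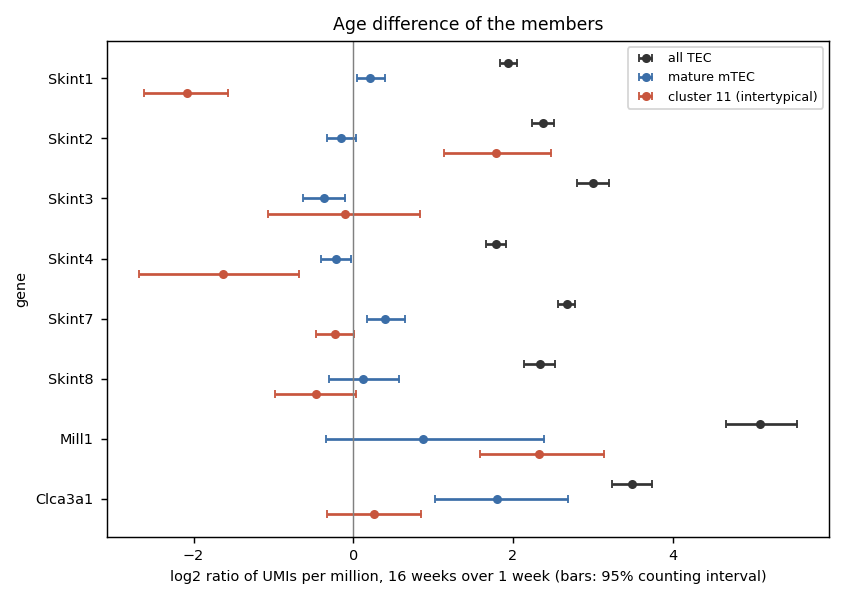
Log2 ratio of CPM at 16 weeks over 1 week for each gene in all TEC, in mature mTEC and in intertypical cluster 11, with 95% counting intervals as bars. All TEC lie right of 0 for every gene, from 1.78 for Skint4 to 5.10 for Mill1, mature mTEC lie between −0.37 and 0.40 for the Skint genes, at 0.87 with a wide interval for Mill1 and at 1.80 for Clca3a1, and cluster 11 spans −2.08 for Skint1 to 2.33 for Mill1.

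Surface tags gave a readout on protein beside the mRNA of the same cells. TEC of each library were split into 3 groups of equal size, low, middle and high, by the share of a tag among all tags of the cell. At 16 weeks, Skint1 was at 14.4 CPM in the low and 176 CPM in the high group for CD80, a costimulatory ligand of mature mTEC, a log2 ratio of 3.61. Skint4 was at 11.3 and 114 CPM, and Mill1 went the other way, at 41.7 and 21.4 CPM. For MHC class II, high on mature mTEC, Skint1 was at 29.8 and 139 CPM and Skint4 at 17.9 and 101 CPM, whereas Mill1 was at 87.6 and 10.5 CPM, a log2 ratio of −3.06.

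The stem cell antigen Sca1, carried by intertypical TEC, sorted the genes in the opposite order. Skint1 was at 161 CPM in its low and 19.1 CPM in its high group, Skint4 at 111 and 9.75 CPM, and Mill1 at 10.2 and 72.0 CPM. For Podoplanin, Skint1 was at 190 and 10.7 CPM. The lectin UEA1, which binds medullary TEC, sorted the other members: Skint7 was at 48.7 and 241 CPM, Mill1 at 16.0 and 86.6 CPM and Clca3a1 at 14.6 and 72.0 CPM, while the log2 ratio was 0.46 for Skint1 and 0.07 for Skint4.

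At 1 week, when most TEC are cTEC, all 8 genes were higher in the high than in the low group for UEA1, by 3.85 to 5.97 on the log2 scale, and lower for MHC class II. Skint1 was at 2.67 CPM in the low and 83.9 CPM in the high UEA1 group. The direction for MHC class II was therefore opposite at the 2 ages for Skint1 to Skint4. Under a centred log ratio of the tags in place of the share, 58 of 63 pairs of gene or Skint sum and tag kept their direction at 16 weeks and 56 at 1 week. Among those that did not were Skint7 and Skint8 for MHC class II and Skint3 for Sca1 at 16 weeks, and Skint2, Skint3 and Skint4 for MHC class II at 1 week. Depth moved with the tags, the median 1-week TEC having 19824 UMIs in the low and 6032 in the high UEA1 group.

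**Figure D4:**
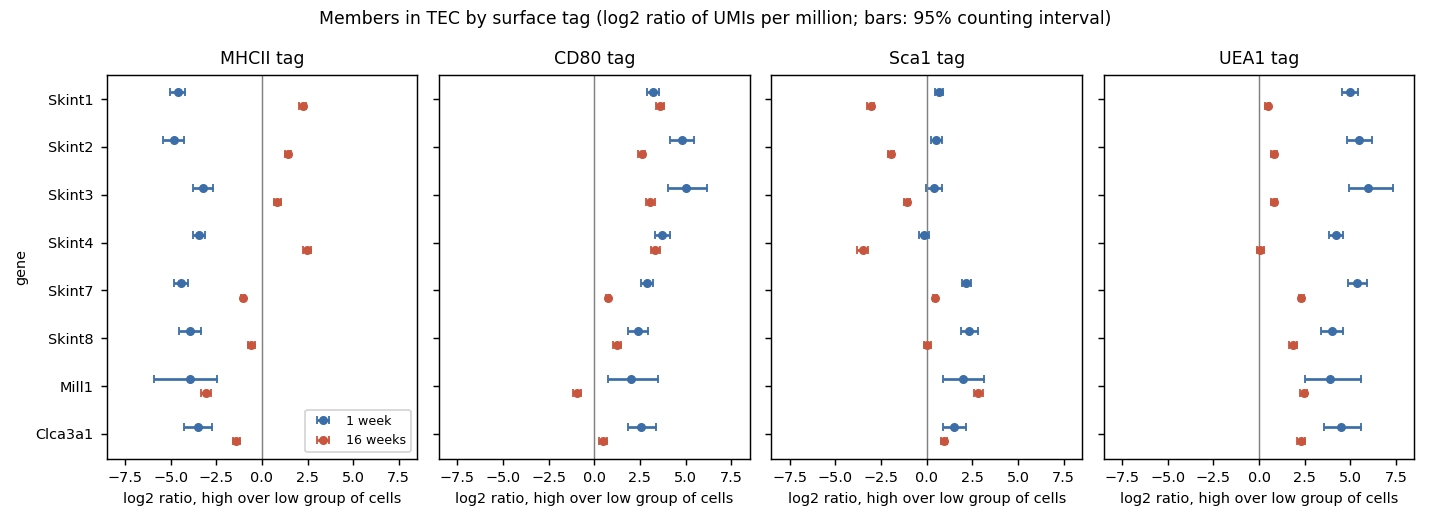
Log2 ratio of CPM between the high and the low group of TEC for 4 surface tags (panels), by gene and age, with 95% counting intervals as bars. For Sca1 at 16 weeks Skint4 lies at −3.50 and Mill1 at 2.82, and for MHC class II Skint1 lies at 2.22 at 16 weeks and left of 0 at 1 week.

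Detection of a member depended on the depth of the cell. At 16 weeks, TEC with a Skint1 UMI had a median of 8883 UMIs and those without 5944, a ratio of 1.49 (1.49 and 1.45 in the wells). The ratio was 1.83 for Skint2, 1.38 for Mill1 and 1.22 for Clca3a1. Without the shallow Gm8113-led cluster it was 2.29 for Mill1 and 1.89 for Clca3a1. Many detections rested on a single molecule: 37.5% of Skint7-positive, 47.6% of Skint1-positive and 62.9% of Skint8-positive TEC held 1 UMI of the gene. The shares of positive cells thus have to be read at equal depth.

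With every cell thinned to 4000 UMIs, which left out 877 of 3556 TEC at 16 weeks and 368 of 2038 at 1 week, Skint1 was detected in 48.2% of mature mTEC (69.5% of the same cells before thinning, 58.7% of all mature mTEC), in 15.9% of Gm8113-led cells and in 2.92% of fibroblasts, whose median cell had 11149 UMIs against 6122 in mature mTEC. The cells left out included 362 of the 803 Gm8113-led cells and 4 of the 249 Ccl11-led cells. Skint7 was detected after thinning in 78.5% of Gm8113-led cells, 52.7% of Ccl11-led cells, 36.6% of mature mTEC and 3.73% of fibroblasts. Before thinning the same cells gave 86.8% of Gm8113-led and 82.4% of Ccl11-led cells, and all cells of these clusters 74.3% and 81.5%. Mill1 was detected in 42.0% of Gm8113-led cells, 33.1% of Ccl11-led cells, 1.56% of mature mTEC and 0.747% of fibroblasts. Over all TEC, the thinned share went from 9.58% at 1 week to 20.9% at 16 weeks for Skint1, from 8.56% to 34.2% for Skint7 and from 0.539% to 13.5% for Mill1.

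The levels themselves differed with depth in intertypical TEC of 16 weeks. Skint7 was at 361 CPM in cells of 2000 to 4000 UMIs, 368 CPM from 4000 to 8000, 140 CPM from 8000 to 16000 and 101 CPM above. Clca3a1 was at 146, 145, 34.0 and 22.6 CPM and Mill1 at 136, 129, 61.0 and 53.6 CPM in the same bins. In mature mTEC, by contrast, Skint4 stayed at 157, 154, 159 and 148 CPM, while Skint2 was at 77.2, 104 and 157 CPM in the first 3 bins and highest in the deepest cells. This class joins 2 clusters of unlike depth. The Sspo-led one had a median of 3341 UMIs, 17.6% mitochondrial UMIs and 79.2 CPM of Skint2 at 16 weeks. The Cd52-led one had a median of 8904.5 UMIs, 5.24% mitochondrial UMIs and 173 CPM. The bins of mature mTEC were not read within a cluster. The depth bins of intertypical TEC hold different clusters as well, and there the levels were also read within a cluster. In Gm8113-led cells alone, Skint7 was at 375 CPM in cells of 2000 to 4000 UMIs, 499.9 CPM from 4000 to 8000 and 438 CPM from 8000 to 16000, and Mill1 at 142, 170 and 145 CPM, so neither was lower in the deepest than in the shallowest of these cells, whereas Clca3a1 was at 151, 194 and 117 CPM. In the Ccl11-led cells Skint7 was at 208 CPM from 4000 to 8000 UMIs, 216 CPM from 8000 to 16000 and 179 CPM above. At the same depth of 4000 to 8000 UMIs, Skint7 was thus higher in the Gm8113-led than in the Ccl11-led cells, with intervals that did not overlap (469 to 533 and 153 to 275 CPM).

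**Figure D5:**
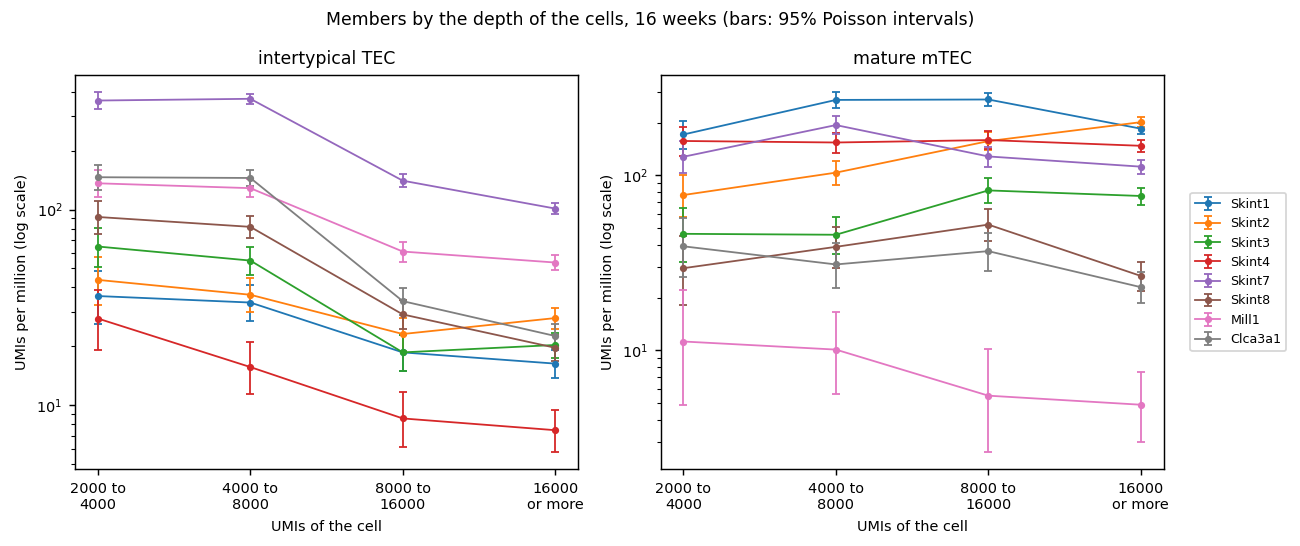
CPM of the 8 genes (lines, log axis) in 16-week intertypical TEC (left) and mature mTEC (right), by the UMIs of the cell, with 95% Poisson intervals as bars. In intertypical TEC Skint7 goes from 361 CPM in the shallowest to 101 CPM in the deepest cells, and in mature mTEC Skint4 stays between 148 and 159 CPM.

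In thinned intertypical TEC, cells with Skint7 held each of the other 7 members more often than cells without it, with intervals that did not overlap. Mill1 was found in 38.1% of 538 Skint7-positive and 14.8% of 750 Skint7-negative cells, Clca3a1 in 32.9% and 11.6%, and Skint8 in 26.6% and 7.07%. Skint3 was found in 17.7% and 3.87%, Skint1 in 13.6% and 3.73%, Skint2 in 14.9% and 6.27% and Skint4 in 5.95% and 1.87%. In mature mTEC, Skint4 was found in 42.8% of 278 Skint1-positive and 40.5% of 299 Skint1-negative cells, whose intervals overlapped, and Skint7 in 42.8% and 30.8%. All of these cells come from 1 pool and several clusters, and the intervals treat the cells as independent. The intertypical class joins clusters high in Skint7 with the Fmod- and Igfbp5-led ones, where it was low, as given above. Co-detection was not read within a cluster, so it cannot be told apart from the mix of clusters. Of the unthinned 16-week TEC, 22.1% held none of the 8 genes and 11 cells (0.309%) held all of them.

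Related genes were taken from lists of families, drawn up with earlier results of these data known. The shares over all genes given above stand beside each count: 29.9% of genes were at least 2-fold higher with age, 23.8% higher and 13.5% lower in mature mTEC, and 11.5% higher and 24.0% lower in the Gm8113-led cluster. Of 5 other Skint genes, 3 had enough UMIs, and 2 of these, Skint9 and Skint10, were at least 2-fold higher at 16 weeks, with log2 ratios of 2.82 and 1.56, and also in mature mTEC, with 2.49 and 1.50. In the Gm8113-led cluster Skint9 was lower, by a log2 ratio of −1.75. Butyrophilins and butyrophilin-like genes, relatives of the Skint genes, were at least 2-fold higher in mature mTEC for 6 of the 6 tested, among them Btnl1 with 2.89 and Btnl2 with 2.57, and at least 2-fold lower in the Gm8113-led cluster for 4 of 6. The median log2 ratio of the list was 1.89 and −1.39 in these comparisons, beside −0.06 and −0.20 over all genes tested.

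Among MHC class I-like genes and stress ligands, 4 of 9 were at least 2-fold higher in mature mTEC, for example Raet1e, a ligand of the receptor NKG2D, with 2.37, and 1, the neonatal Fc receptor chain Fcgrt, was lower, with −1.03. Mill2, the closest relative of Mill1, was the 1 of 9 that was higher in the Gm8113-led cluster, with 1.30. In that cluster 3 of the 9, Raet1d, Raet1e and Azgp1, were lower, each from 2 UMIs there, and the median of the list was −0.79. Of the chloride channel regulators, Clca2 and Clca3a2 were higher in that cluster, with 2.06 and 1.06, and 4 of 6 were lower, while in mature mTEC 1 of 6 was higher and 2 were lower. Among factors of γδ T cell selection in TEC, 5 of 9 were higher in mature mTEC, among them Cd40 with 2.23 and the RANK receptor gene Tnfrsf11a with 1.51, and the chemokine gene Ccl21a and the cytokine gene Il7 were lower, with −2.55 and −2.08. Cd40 and Tnfrsf11a are among the markers that named clusters mature mTEC, and Ccl21a among those for intertypical TEC. Aire and Fezf2, of the next list, are markers of mature mTEC too. The ratios of these genes therefore cannot be read apart from the naming. Of 9 genes for Aire and promiscuous expression, 6 were higher in mature mTEC and 6 lower in the Gm8113-led cluster, and of 11 thymocyte genes 3 were higher in mature mTEC and 3 lower in the Gm8113-led cluster, which is near the share over all genes in both cases. With age, however, 6 of the 11 were at least 2-fold lower in all TEC, where 6.67% of genes were, with a median log2 ratio of −1.19, and 3 of 10 in mature mTEC, where 5.67% were, with a median of −0.80. Thymocyte transcripts thus moved with age opposite to the members over all TEC, and their part in the levels of the members was not tested. In all TEC with age, 5 of 7 butyrophilin genes, 5 of 6 chloride channel regulators, 4 of 9 MHC class I-like genes, 3 of 9 factors of γδ T cell selection and 7 of 9 genes for Aire and promiscuous expression were higher. Of 9 keratinocyte-like markers 8 were higher with age, with a median log2 ratio of 2.42 beside 2.53 for the members. In mature mTEC 1 of these 9 was higher and 3 were lower, and in the Gm8113-led cluster 0 were higher and 4 lower.

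Across 41 units of TEC cluster and library with at least 30 cells, which share libraries and therefore depth, the pattern of Skint1 was most like that of Dusp4, with Pearson r of 0.97, followed by Blnk and Syt1. Skint4 was most like Cadps, with 0.96, Skint2 most like Adam8, with 0.93, followed by Tnfrsf11a and Fezf2, and Skint3 most like Nectin4, with 0.93. Skint7 and Skint8 shared Dapk2 as the nearest gene, with 0.95 and 0.88, and Mill1 was nearest to Scn7a, with 0.91, and Clca3a1 to Ifi203, with 0.90. Among the members themselves r was 0.95 between Skint7 and Skint8, 0.93 between Skint1 and Skint4, 0.90 between Skint7 and Clca3a1 and 0.74 between Mill1 and Clca3a1. It was also 0.75 between Skint1 and Skint7 and 0.81 between Skint3 and Skint8, and over all pairs of Skint members it ranged from 0.60 to 0.95. With Mill1 it ranged from −0.02 for Skint4 and 0.09 for Skint1 to the value for Clca3a1. Skint7 and Skint8 share part of their sequence: of the 50-base windows in the last 1000 bases of their transcripts, 7.75% and 10.2% occur in another gene, 211 of 239 and 264 of 310 of these windows in each other, and 10.7% of those of Clca3a1 do, 96 of 127 of them in Clca3a2. Reads from such windows cannot be placed with certainty, and the values of these genes are uncertain to that extent.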

How the data were processed

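CITE-seq libraries of pooled thymic stroma were analysed, 4 of mRNA and 4 of antibody tags. The authors aligned reads to mm10 with STARsolo 2.7.9a and Ensembl gene models, kept cells of at least 2000 UMIs and deposited whole-number counts (UMIs) per gene and cell and counts per tag and cell, neither of them normalised. The labels name version 2 of the 3′ kit and the methods version 3. Library and age were read from the ending of the cell names. No annotation of cells by the authors was used.

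Doublets were scored per library (scanpy 1.11.5). The automatic limit marked 12 cells, so the 253 highest scores (0.8% per 1000 cells, 2.54%) were taken as doublets and removed. Of 6625 epithelial cells, doublets included, 934 in shallow clusters (median under 3000 UMIs) and 97 other cells scored as doublets were left out, which gave the 5594 TEC. TEC were clustered on 30 principal components of 2000 variable genes with 10 neighbours, after correction across library and depth class (limit 12000 UMIs), and a name needed 3 markers of a list, each in 10% of cells at 0.25 of its highest level. These naming rules, the members and the lists were chosen with earlier results of these data known, and 1012 TEC stayed unnamed.

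Counts were summed per cluster, age and well and given as CPM. Log2 ratios are 16 weeks over 1 week or first over second group, with exact conditional binomial intervals at 95%, and levels have exact Poisson intervals. With 1 pool per age no test was made. Genes with at least 20 UMIs in a comparison were counted, and a 2-fold difference was the margin. For shares of positive cells, each cell was thinned to 4000 UMIs. The ratio script was tested on simulated counts. All 8 members are described, other genes come from family lists, and the 3 genes most like each member were found by Pearson r of log2(CPM + 10) over genes of at least 100 UMIs. Names and coordinates are from GENCODE M21 (GRCm38.p6), in which 55141 of 55487 identifiers had a symbol. Alternatives were doublets or shallow clusters kept, other clusterings, scaling by trimmed means (TMM, edgeR 4.0.16), a mean over cells, thinning, and each well left out.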

Additional observations from a re-analysis of the deposited data

Results flagged for a closer look

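The age difference of Skint1 went in opposite directions in clusters of TEC. In the Cd52-led mature mTEC (cluster 1) both 16-week wells, at 226 and 227 CPM, were above the 1-week wells, at 205 and 187 CPM, whereas in the Sprr2a3- and Ccl21a-led intertypical TEC (cluster 11) both were below, at 23.3 and 23.8 CPM against 95.8 and 104 CPM. The log2 age ratios, 0.20 and −2.08, differ by 2.28. The Bpifa1-led cells (cluster 6) had a log2 ratio of 0.70 for Skint1, which differs from that of cluster 11 by 2.78. For the summed Skint members, the age ratio of cluster 11 was −0.44, and it differed by 1.19 from that of the Hbb-bs-led cTEC (cluster 2), by 1.18 from that of the Gm4841-led cTEC (cluster 4) and by 0.78 from that of the Utf1- and Aspm-led cells (cluster 9), all of which were higher at 16 weeks. In cluster 2 the sum was at 39.0 and 62.4 CPM at 1 week and 113 and 78.1 CPM at 16 weeks, above the level in fibroblasts of the same age. The cells of cluster 2 were shallow and its name depended on the clustering, as given above. In cluster 4 the sum was at 12.3 and 14.0 CPM at 1 week and 27.7 and 17.3 CPM at 16 weeks, no higher than in fibroblasts of 16 weeks (34.4 CPM, against 10.3 CPM at 1 week), so these levels are of the size read as background. The wells are technical, and none of these differences was tested. Cells of cluster 11 were deeper at 16 weeks, with a median of 17236 UMIs against 6301.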

How the results depend on the processing

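No paired analysis was possible because the numbers 1 and 2 name wells of 1 pool per age and no test was made. All values in this paragraph are log2 ratios unless said otherwise. Of 118 alternative values for the main results, 69 stayed within the interval of the reported value, 48 moved beyond it and 1 changed the direction of a value whose interval leaves out 0: Clca3a1 in mature mTEC against other TEC went from −0.55 to 0.24 without the Gm8113-led cluster. For single Skint genes, 4 of 126 did so, Skint3 in mature mTEC to −1.14 without batch correction, −0.74 with 20 neighbours and −0.70 with members and markers left out of the clustering, and Skint4 with age to −0.12 with clusters weighted equally. Another 64 of the 126 moved beyond the interval and 58 stayed within it. Where the reported interval spans 0, the sign also changed: with age in mature mTEC for the summed Skint members under 5 of 12 alternatives and for Mill1 under 1 of 11, and between mature mTEC and other TEC for Skint7 under 1 of 10 and for Skint8 under 7 of 10. The cause of these shifts was not tested.

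The age difference of the summed Skint members in TEC was 2.32 as reported, 2.02 under TMM scaling, 1.76 as a mean over cells, 1.73 after thinning, 2.21 without the Gm8113-led cluster, 0.26 with clusters weighted equally (only the 10 with at least 20 cells at each age) and 2.24 to 2.38 with 1 well left out. That of Mill1 was 5.10 as reported, 4.53 without the Gm8113-led cluster and 2.29 with equal weights, and that of Clca3a1 was 3.48 as reported, 3.19 under TMM scaling, 3.05 as a mean over cells, 2.99 after thinning, 2.90 without the Gm8113-led cluster and 1.07 with equal weights. Within mature mTEC, the summed Skint members were at 0.00 as reported, 0.54 without batch correction, 0.13 with members left out of the clustering and −0.15 to 0.13 with 1 well left out, and Mill1 at 0.87 as reported and −0.067 to 2.64 with 1 well left out. Without batch correction Mill1 gave no ratio there, having no UMI at 1 week.

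For mature mTEC against other TEC, the summed Skint members were at 1.23 as reported, 1.30 with doublets kept, 1.10 with shallow clusters kept, 0.41 without batch correction, 0.67 with 20 neighbours, 0.51 with members left out of the clustering, 1.06 under TMM scaling, 0.81 as a mean over cells, 1.01 after thinning and 1.53 without the Gm8113-led cluster. Mill1 was at −2.88 as reported, −2.44 with members left out of the clustering, −3.43 after thinning, −2.30 without the Gm8113-led cluster and −3.63 to −2.59 with 1 well left out, and Clca3a1 at −0.55 as reported, −0.84 without batch correction, −0.80 with members left out, −1.09 as a mean over cells and −0.92 after thinning. The class held 938 cells as reported, 748 without batch correction, 662 with 20 neighbours and 549 with members left out. The ratio of median depth of positive to negative TEC (not on a log scale) was 1.21 as reported, 1.32 with shallow clusters kept and 1.39 without the Gm8113-led cluster for the summed Skint members, 1.38 as reported, 2.29 without that cluster and 1.23 to 1.43 with 1 well left out for Mill1, and 1.22 as reported and with doublets kept, 1.21 with shallow clusters kept, 1.24 to 1.25 with 1 well left out and 1.89 without that cluster for Clca3a1. Of genes past a 2-fold age difference there were 8063 as reported, 17752 with no filter (at least 1 UMI) and 4875 with at least 100 UMIs.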
